A study of Homo sapiens with 18 samples.

Results

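The genes followed here are 44 enzymes that oxidise, reduce or conjugate aldehydes, ketones and other reactive carbonyl compounds, chosen by name and matched to 44 of the 62649 gene IDs in the count files. They fall into 16 aldehyde dehydrogenases (ALDH), 8 aldo-keto reductases (AKR), 6 carbonyl reductases and related reductases (CBR), 6 enzymes of the glyoxalase and formaldehyde routes, and 8 glutathione S-transferases (GST). Expression was measured by mRNA sequencing in A549 cells, a wild-type alveolar epithelial line from a lung carcinoma, and in BEAS-2B cells, a wild-type immortalised bronchial epithelial line. On inserts of 24 mm, where cells meet the aerosol at an air-liquid interface, 400000 A549 or 500000 BEAS-2B cells were seeded 24 h before an exposure of 4 h at 100 mL/min and 85% relative humidity. The aerosol was complete wood smoke or its filtered form, clean air served as control, and each of the 6 combinations of line and aerosol has 3 libraries. All had HEPES-supplemented RPMI 1640 medium below the insert. A549 cells had been kept in RPMI 1640 with serum and BEAS-2B cells in KGM medium.

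Wood smoke carries gas-phase carbonyls, and the series title places the question there. Aldehyde dehydrogenases oxidise aldehydes to carboxylic acids, whereas aldo-keto and carbonyl reductases turn carbonyl groups into alcohols. The glyoxalase enzymes GLO1 and HAGH convert methylglyoxal to lactate by way of a glutathione adduct, and ADH5 with ESD does the corresponding work for formaldehyde. Glutathione transferases join glutathione to electrophiles such as acrolein and hydroxynonenal, and some members of these families are known targets of the stress-responsive transcription factor NRF2.

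Counts assigned to genes ranged from 14.44 to 21.43 M per library in A549 cells and from 28.53 to 55.03 M in BEAS-2B cells. All 6 epithelial markers examined reached 1 CPM (the count as a share of the library, in the usual CPM unit, on library sizes scaled by TMM over all 18 libraries) in both lines. In clean-air A549 cells 2 of 10 alveolar type II markers reached 1 CPM and 5 were at 0, so the alveolar label is not matched by these markers. In clean-air BEAS-2B cells all 6 basal markers and 4 of 6 fibroblast markers reached 1 CPM, with COL1A1 at 747 CPM. The summed basal markers of BEAS-2B cells ran from 538 to 1030 CPM with clean air, 858 to 2260 with complete and 1280 to 2510 with filtered smoke. The summed fibroblast markers ran from 522 to 960, 235 to 467 and 362 to 507 CPM in the same order. In A549 cells fibroblast sums were 25.6 to 42.9, 11.7 to 22.8 and 9.62 to 15.7 CPM, and basal sums 21.5 to 24.0, 12.6 to 19.8 and 16.5 to 18.4 CPM. The secretory sum of BEAS-2B cells was 1.67 to 2.68 CPM with clean air and at most 0.214 with smoke, and the ciliated sum 2.49 to 2.71, 5.85 to 6.76 and 5.68 to 6.59 CPM. Epithelial sums were 6480 to 8540, 8150 to 13800 and 8980 to 16700 CPM in A549 and 3470 to 8620, 6790 to 19900 and 9670 to 19700 CPM in BEAS-2B cells. The part of these shifts in the results was not tested. BEAS-2B library 3 with complete smoke stood apart in read mapping. Of all its reads 31.66% mapped to several places, against 7.688% to 19.18% in the other BEAS-2B libraries. Of its uniquely mapped reads 12.58% matched no gene feature on the counted strand, against 1.094% to 6.413%. Such unmatched reads can still lie in introns or on the opposite strand of a gene. Of the 44 enzymes, 42 passed the low-count filter in A549 cells (ALDH1L1 and AKR7A3 did not) and 43 in BEAS-2B cells (ALDH1A1 did not). In bulk RNA, a change in the number of cells of a kind and a change in RNA per cell cannot be told apart.

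With clean air the lines carried different sets of these enzymes. Per kilobase of exon, A549 cells were led by ALDH1A1, a retinaldehyde and lipid aldehyde dehydrogenase, at 2290 CPM per kb, followed by the reductase AKR1B10 at 779 and ALDH3A1, which oxidises aromatic and medium-chain aldehydes, at 501. BEAS-2B cells were led by GSTP1, the pi-class glutathione transferase, at 234 CPM per kb, followed by PARK7 at 169 and GLO1 at 117. PARK7 (DJ-1) is a redox-sensitive protein for which a glyoxalase activity has been described. Summed over the 44 genes, the level was 16700 ± 1280 CPM in A549 and 3050 ± 789 CPM in BEAS-2B cells (mean ± SD, n = 3), and the ALDH sum alone was 9460 ± 550 against 678 ± 28.8 CPM. The GST sum was closer, 1020 ± 64.9 against 813 ± 390 CPM, and the glyoxalase and formaldehyde sum was lower in A549 cells, 508 ± 13.7 against 1020 ± 212 CPM.

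**Figure D1:**
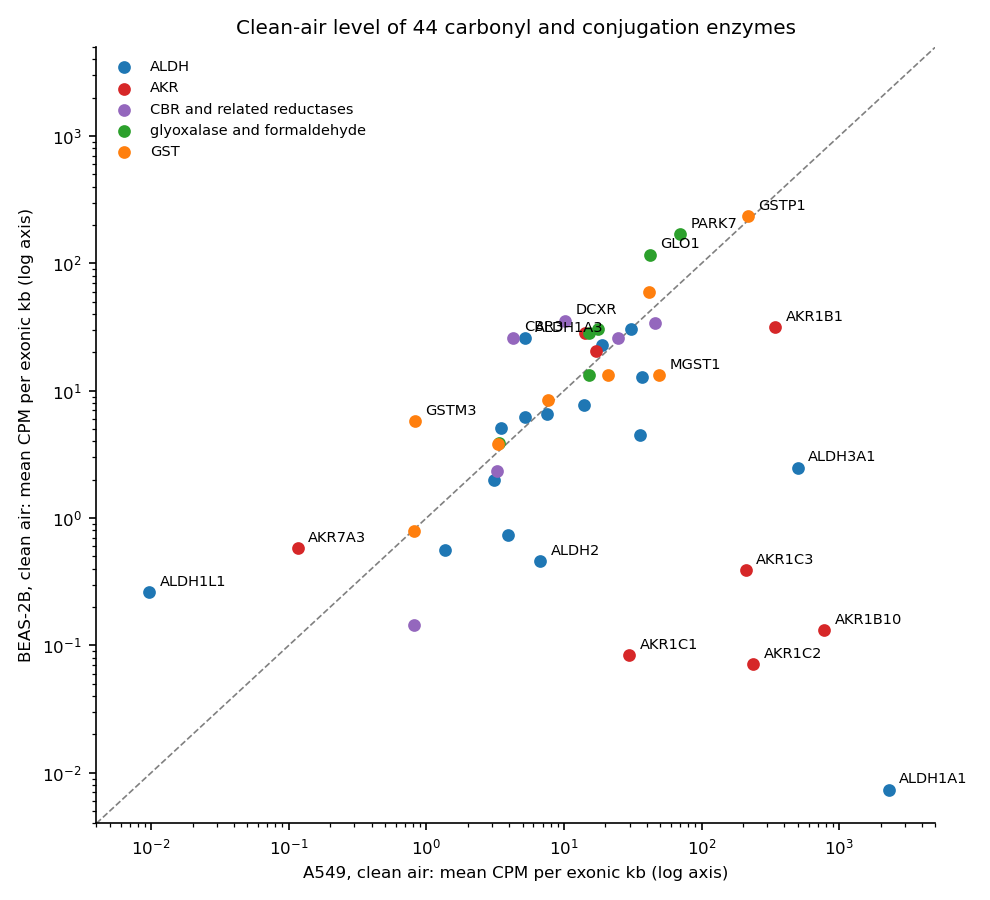
Mean clean-air level of each of the 44 genes in CPM per exonic kb, A549 on the horizontal and BEAS-2B on the vertical log axis, with the dashed line marking equal levels and colours marking the enzyme class. ALDH1A1 (2290 CPM per kb in A549 cells), AKR1B10 (779), ALDH3A1 (501) and the AKR1C genes lie far below the line, while GSTP1 lies near it (217 and 234).

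Tested between lines with clean air, 11 of the 44 were higher and 17 lower in BEAS-2B than in A549 cells, where 27.3% of all 17703 genes tested were higher and 28% lower (quasi-likelihood test of edgeR, p adjusted by Benjamini-Hochberg over all genes and called under 0.05, as for every adjusted p given here). Lower in BEAS-2B were 9 of 16 ALDH and 5 of 8 AKR genes, and higher were 4 of 6 genes of the glyoxalase and formaldehyde routes. Line, culture medium, cell number and the way the lines were sequenced cannot be told apart in this comparison.

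ALDH1A1 (ENSG00000165092, GRCh38 chromosome 9, 72900662 to 73080442) measured 6840, 5820 and 6878 CPM in the clean-air A549 libraries. In BEAS-2B cells it received 2 counts over the 3 clean-air libraries together, a ratio of 337000 with an exact Poisson 95% interval of 93300 to 2780000 that covers counting error only. The gene was thus among the most abundant of the enzymes in one line and at the limit of detection in the other.

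AKR1B10, which reduces retinal and lipid aldehydes, measured 1676, 1324 and 1074 CPM in clean-air A549 cells and 0.252, 0.268 and 0.169 CPM in BEAS-2B cells (24 counts in all; ratio 5900, interval 3960 to 9200). AKR1C2, a hydroxysteroid and carbonyl reductase, measured 1780, 1412 and 1428 CPM against 0.882, 0.268 and 0.225 CPM (46 counts; ratio 3470, interval 2600 to 4740). Its close relative AKR1C3, which also reduces prostaglandins and ketones, measured 1148, 906.5 and 786.8 against 2.61, 1.45 and 1.27 CPM, and AKR1C1 291.5, 221 and 272.7 against 1.13, 0.375 and 0.704 CPM. The A549 and BEAS-2B libraries did not overlap for any of these reductases, and the log2 difference was -9.06 ± 0.47 for AKR1C3 and -8.48 ± 0.37 for AKR1C1 (SE; adjusted p = 9.06e-11 and 1.78e-11). AKR1C1, AKR1C2 and AKR1C3 are close in sequence, as are AKR1B10 and AKR1B15. Reads that fit more than 1 copy are not counted, so their separate values are uncertain.

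Among the dehydrogenases, ALDH3A1 measured 2100, 2080 and 1708 CPM in A549 against 14.5, 7.56 and 7.21 CPM in BEAS-2B cells, a log2 difference of -7.65 ± 0.50 (adjusted p = 1.57e-09). ALDH2, the mitochondrial enzyme that clears acetaldehyde, measured 65.6, 51.8 and 79.0 against 4.28, 4.90 and 4.14 CPM (-3.88 ± 0.24, adjusted p = 7.57e-10). It overlaps another protein-coding gene on its strand, which adds uncertainty to its count. ALDH1L1, a cytosolic folate enzyme that oxidises formyl-tetrahydrofolate, went the other way, with 8 counts in clean-air A549 cells and 5.17, 2.98 and 2.65 CPM in BEAS-2B cells (ratio 28.5, interval 14.5 to 66.0). Of the conjugating enzymes, GSTM3, a mu-class transferase, was higher in BEAS-2B cells by 2.82 ± 0.25 (adjusted p = 5.26e-08) and MGST1, a membrane-bound microsomal transferase, lower (-1.88 ± 0.19, adjusted p = 2.33e-07). The calls of ALDH1A1, AKR1B10, AKR1C1, AKR1C2, AKR1C3, ALDH3A1, ALDH2 and ALDH1L1 held in each of 15 alternatives, and the count of called enzymes stayed between 25 and 35.

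Smoke shifted the enzymes mostly upward in both lines. In A549 cells with complete smoke 11 of 42 tested were higher and 1 lower than with clean air, 26.2% and 2.38%, where 15.6% and 16.9% of all 15244 genes tested were higher and lower. With filtered smoke 22 of 42 were higher and 2 lower, 52.4% and 4.76%, where 23.1% and 23.5% of all genes were. In BEAS-2B cells 17 of 43 were higher and 3 lower with complete smoke, 39.5% and 6.98%, where 21.5% and 19.5% of all 16356 genes were, and 21 of 43 were higher and 4 lower with filtered smoke, 48.8% and 9.3%, where 23.6% and 24.9% were. The median log2 fold change of the enzymes was 0.48, 0.54, 0.43 and 0.63 in that order, beside 0.02, 0.01, -0.06 and -0.07 over all genes tested. The 2 smoke comparisons of a line use the same clean-air libraries.

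Counts by class follow, and differences between classes were not tested. Over all genes tested 15.6% and 23.1% rose in A549 and 21.5% and 23.6% in BEAS-2B cells with complete and filtered smoke. The shares that fell were 16.9%, 23.5%, 19.5% and 24.9% in the same order. Some class shares lay near these, such as CBR with complete (16.7%) and ALDH with filtered smoke (26.7%) in A549 cells. Of 8 GST genes, 5 and 8 rose in A549 and 7 and 6 in BEAS-2B cells with complete and filtered smoke, and none fell. Of 6 glyoxalase and formaldehyde genes, 3 and 4 rose in A549 and 4 and 4 in BEAS-2B cells, again with none lower. Among the reductases 2 and 3 of 7 tested AKR genes rose in A549 and 3 and 4 of 8 in BEAS-2B cells, and of 6 CBR genes 1 and 3 rose in A549 and 2 and 2 in BEAS-2B cells. The ALDH genes split, with 0 higher and 1 lower, then 4 and 2, of 15 tested in A549 cells. In BEAS-2B cells the counts were 1 and 3, then 5 and 3, of 15 tested. That split depended on the scaling. By library size alone, without TMM, 0 ALDH genes were higher and 9 lower with each smoke in BEAS-2B cells. Their medians were then -0.77 and -0.76, beside -0.75 and -0.74 over all genes.

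With complete smoke 10 of the enzymes rose in both lines, 90.9% of the 11 in A549 and 58.8% of the 17 in BEAS-2B cells, where the shares over all genes that rose were 61.7% and 41.6%. With filtered smoke 17 did, 77.3% of 22 and 81.0% of 21, where they were 66.5% and 60.6%. Whether the enzymes differ in this from all genes was not tested. The 9 that rose in all 4 comparisons were AKR1A1, AKR1B1, DCXR, HAGH, PARK7, ESD, GSTM3, GSTK1 and MGST3. No enzyme fell in both lines in the main fits (TMM scaling, without the block described below or other alternatives). By library size alone ALDH1L2, ALDH3A2 and ALDH6A1 fell in both lines with filtered smoke. With the block in both lines, ALDH1L2, ALDH3A2, ALDH5A1 and ALDH6A1 did with filtered smoke, and ALDH1L2 did with complete smoke. In the main fits another 13 passed in none of the 4: ALDH1A1, ALDH1A3, ALDH2, ALDH7A1, ALDH9A1, ALDH18A1, AKR1C1, AKR1C2, AKR1C3, AKR7A3, CBR3, CBR4 and GLOD4. With the sample number as a term of the fit (a block), ALDH1A3, ALDH2, ALDH7A1, AKR1C3 and CBR3 of these passed in A549 cells.

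**Figure D2:**
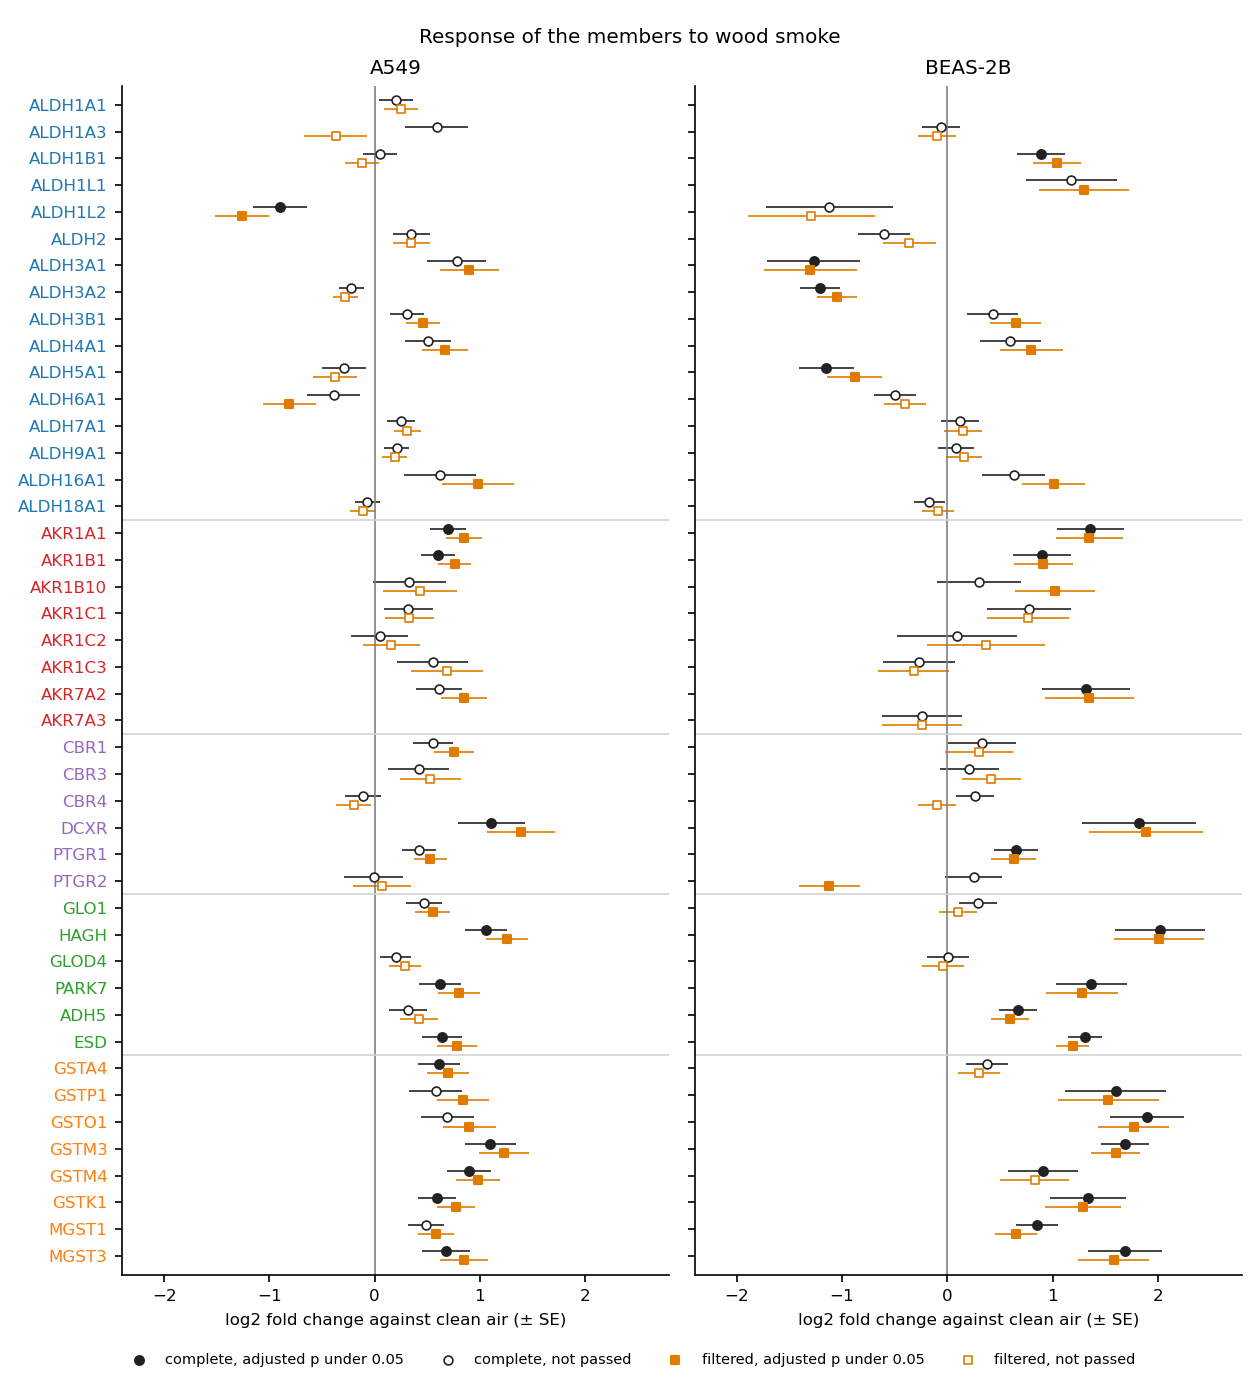
Log2 fold change against clean air with its standard error for each tested gene, A549 on the left and BEAS-2B on the right, circles for complete and squares for filtered smoke, filled where the edgeR adjusted p is under 0.05. Gene names are coloured by class, and the GST and glyoxalase rows lie to the right of 0 in both lines apart from GLOD4 with filtered smoke in BEAS-2B cells (-0.04), while ALDH rows lie on both sides.

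These counts depended on single libraries and on scaling. The shares of all genes called under these and all other alternatives in the text are not given, so those counts have no such share beside them. Without one library at a time the number of called enzymes in A549 cells with complete smoke was 3, 1 and 23 without complete 1, 2 and 3 and 5, 3 and 3 without control 1, 2 and 3, in place of 12, and with the sample number as a block it was 25. The block added 13 enzymes there, among them ALDH1A3 (0.67, adjusted p = 0.0424), ALDH4A1 (0.48, 0.011) and AKR7A2 (0.58, 0.00881). With filtered smoke it was 11, 14 and 31 without filtered 1, 2 and 3 and 16, 13 and 16 without control 1, 2 and 3, in place of 24. In BEAS-2B cells with complete smoke it was 11, 12 and 23 without complete 1, 2 and 3 and 25, 7 and 8 without control 1, 2 and 3, in place of 20. With filtered smoke there it was 12, 11 and 20 without filtered 1, 2 and 3 and 28, 9 and 9 without control 1, 2 and 3, in place of 25. Scaled by library size alone, the BEAS-2B counts became 10 higher and 12 lower with complete and 10 higher and 14 lower with filtered smoke. That scaling moved the median of all genes to -0.75 and -0.74 and of the enzymes to -0.27 and -0.03, so the BEAS-2B changes given here are relative to the bulk of genes (in A549 cells the medians of all genes became -0.10 and -0.15). Under it the calls of AKR1B1 (0.23 and 0.27 with complete and filtered smoke), ALDH16A1 (0.36) and ALDH1L1 (0.65) were also lost in BEAS-2B cells.

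Some libraries were high or low for nearly all genes that rose. BEAS-2B control 1 was the highest of its 3 controls for 16 of 17 and 19 of 21 genes that rose with complete and filtered smoke. Sample 3 was the lowest of its smoke group for 11 of 11 (A549 complete), 21 of 22 (A549 filtered), 17 of 17 (BEAS-2B complete) and 17 of 21 (BEAS-2B filtered). The share of uniquely mapped reads that matched no gene feature moved with this order. It was 6.409% and 5.088% in sample 3 of the A549 smoke groups against 2.562% to 3.728% in samples 1 and 2. In BEAS-2B control 1 it was 3.511% against 5.368% and 6.413% in controls 2 and 3. The same share also separated the groups compared: it was 6.493% to 7.565% in A549 controls, above every A549 smoke library, and 3.511% to 6.413% in BEAS-2B controls against 1.094% to 2.899% in their smoke libraries other than complete 3. Its part in the results was not tested. Without BEAS-2B control 1 and complete 3 together, 25 rose and 3 fell with complete and 27 rose and 5 fell with filtered smoke.

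HAGH rose in all 4 comparisons. The hydrolase, which completes methylglyoxal detoxification (ENSG00000063854, chromosome 16, 1795620 to 1827194), measured 21.7, 20.4 and 18.3 CPM in clean-air A549 cells, 45.6, 46.8 and 33.0 with complete and 54.2, 54.6 and 35.6 with filtered smoke. Every smoke library lay above every control, with log2 fold changes of 1.06 ± 0.20 (2.09-fold, adjusted p = 0.00646) and 1.26 ± 0.20 (2.40-fold, adjusted p = 0.0021). In BEAS-2B cells it measured 36.1, 18.4 and 15.1 CPM with clean air, 139.2, 92.5 and 54.3 with complete and 122.8, 90.2 and 73.4 with filtered smoke. The smoke libraries again lay above every control, with 2.02 ± 0.43 (4.04-fold, adjusted p = 0.0083) and 2.01 ± 0.43 (4.03-fold, adjusted p = 0.00784). The call held in all alternatives of all 4 comparisons, over which the adjusted p ran from 6.85e-06 to 0.0353 for complete smoke in A549 cells and from 4.91e-06 to 0.04 in BEAS-2B cells.

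The first enzyme of that route, GLO1, which forms the glutathione adduct that HAGH cleaves, passed only with filtered smoke in A549 cells (0.55 ± 0.17, adjusted p = 0.0238) and measured 0.29 ± 0.18 and 0.10 ± 0.18 in BEAS-2B cells (adjusted p = 0.217 and 0.664). With the block it also passed with complete smoke in A549 cells (0.46, adjusted p = 0.00492).

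PARK7 (chromosome 1, 7954291 to 7985505) measured 175.5, 159.1 and 164.4 CPM in clean-air A549 cells, 280.2, 282.8 and 200.2 with complete and 348.5, 307.2 and 211.7 with filtered smoke. Its BEAS-2B levels were 605.3, 308.2 and 299.3, then 1321, 1028 and 807.7, then 1147, 955.3 and 909.4 CPM. No smoke library overlapped the controls of its line, and BEAS-2B control 1 lay between the other controls and the smoke libraries. The fold changes were 0.62 ± 0.20 and 0.80 ± 0.20 in A549 (adjusted p = 0.0411 and 0.0111) and 1.37 ± 0.34 and 1.28 ± 0.34 in BEAS-2B cells (0.0139 and 0.0152). The A549 call with complete smoke was lost without complete 1 (adjusted p = 0.131), complete 2 (0.138) or any control (0.0916, 0.123 and 0.104), with library size alone (0.49, 0.0558) and with offsets for exonic length, span and GC content (0.37, 0.0793). Both BEAS-2B calls were lost without control 2 (0.059 and 0.0616) or control 3 (0.0564 and 0.0596).

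For formaldehyde, ESD hydrolyses formyl-glutathione (chromosome 13, 46771256 to 46797232). It measured 49.5, 51.8 and 53.9 CPM in clean-air A549 cells, 91.7, 87.4 and 61.4 with complete and 106.2, 87.5 and 72.0 with filtered smoke. The BEAS-2B libraries measured 101.1, 93.7 and 93.5, then 232.2, 247.3 and 227.3, then 217.5, 222.3 and 220.9 CPM. All smoke libraries lay above the controls of their line, and the 3 BEAS-2B controls lay close together. It rose in all 4 comparisons, by 0.64 ± 0.19 and 0.78 ± 0.19 in A549 and by 1.31 ± 0.16 and 1.19 ± 0.16 in BEAS-2B cells (adjusted p = 0.0301, 0.00974, 0.00183 and 0.00247). ADH5, the glutathione-dependent formaldehyde dehydrogenase that acts before it, rose in BEAS-2B cells (0.67 ± 0.18 and 0.60 ± 0.18, adjusted p = 0.0186 and 0.0241). In A549 cells it measured 0.32 ± 0.18 and 0.42 ± 0.18 (adjusted p = 0.176 and 0.0754), and with the block filtered smoke passed (0.40, adjusted p = 0.0216). GLOD4, a glyoxalase-domain protein, passed in no comparison of the main fits.

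**Figure D3:**
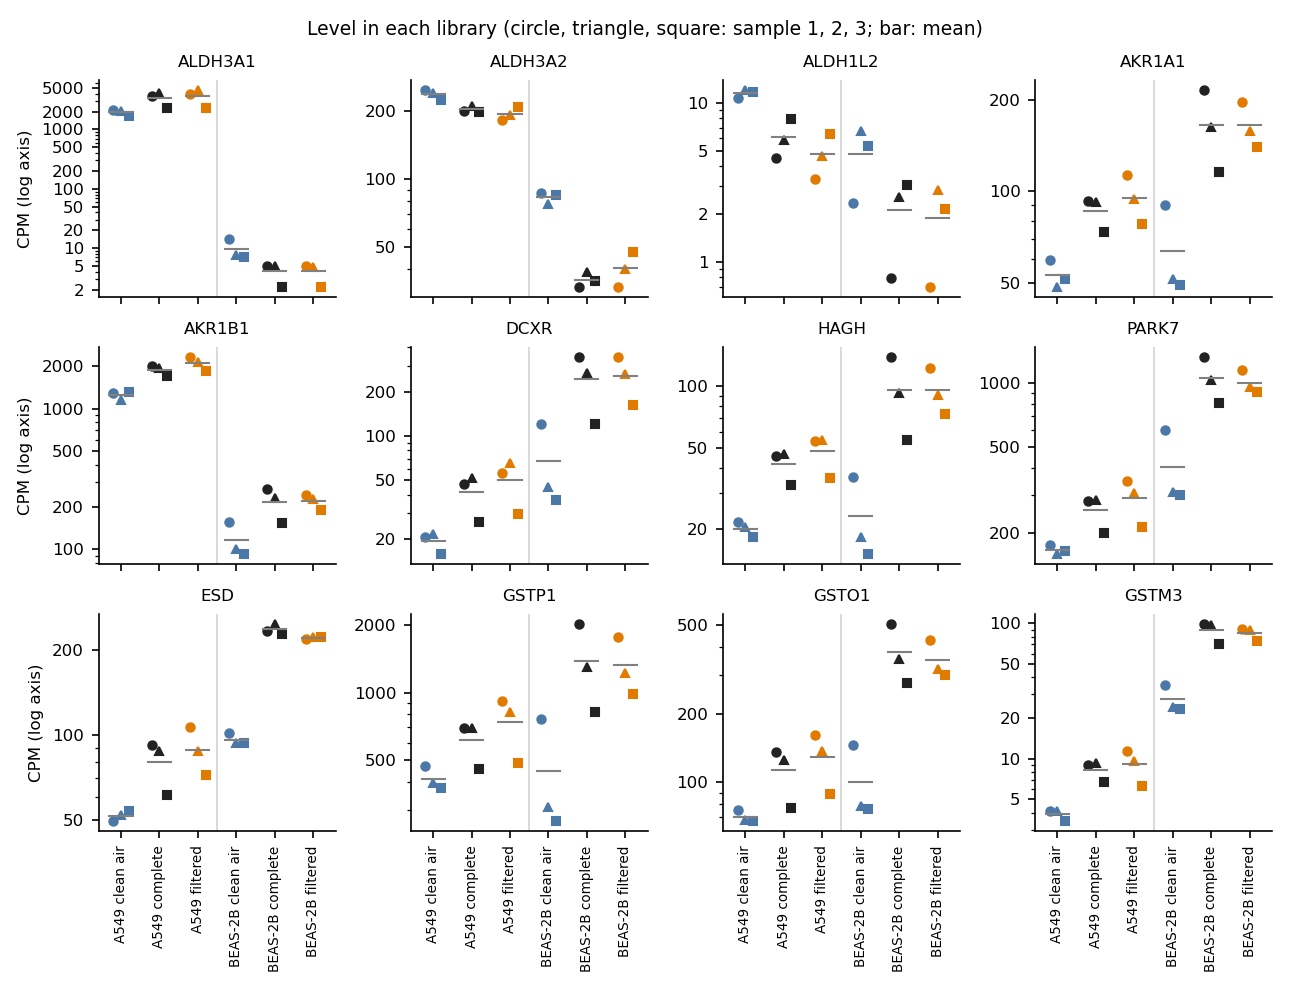
Level in CPM (log axis, a different range in each panel) of 12 of the enzymes in every library, in the order clean air, complete and filtered smoke for A549 and then BEAS-2B, with a marker for each sample number and a bar at the group mean. HAGH rises from 20.1 to 41.8 and 48.1 CPM in A549 and from 23.2 to 95.3 and 95.4 CPM in BEAS-2B cells, ALDH3A2 falls from 83.5 to 35.8 and 40.4 CPM in BEAS-2B cells, and square markers (sample 3) are low in many smoke groups.

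Among the glutathione transferases GSTM3 rose in all 4 comparisons. GSTM3 (ENSG00000134202, chromosome 1, 109733932 to 109741038) measured 4.14, 4.09 and 3.47 CPM in clean-air A549 cells, 8.93, 9.28 and 6.70 with complete and 11.5, 9.67 and 6.28 with filtered smoke. BEAS-2B libraries gave 34.9, 24.3 and 23.5, then 99.8, 96.7 and 70.4, then 91.0, 88.8 and 74.0 CPM. All smoke libraries lay above the controls of their line. The fold changes were 1.10 ± 0.24 and 1.23 ± 0.24 in A549 (adjusted p = 0.0108 and 0.00415) and 1.69 ± 0.23 and 1.60 ± 0.23 in BEAS-2B cells (0.00227 and 0.00282), and the one call lost in any alternative was that with complete smoke in A549 cells without complete 2 (adjusted p = 0.0505).

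GSTO1, an omega-class transferase that reduces ketones and thiol adducts (ENSG00000148834, chromosome 10, 104235356 to 104267459), measured 147, 78.3 and 76.0 CPM in clean-air BEAS-2B cells, 506.5, 354.5 and 275.4 with complete and 427.4, 317.6 and 299.3 with filtered smoke. The smoke libraries lay above every control, and the fold changes of 1.90 ± 0.35 and 1.77 ± 0.34 (3.73-fold and 3.40-fold, adjusted p = 0.00489 and 0.00594) held in all 15 alternatives. In A549 cells it measured 74.9, 68.2 and 67.3 CPM with clean air, 135.7, 125.3 and 77 with complete and 162.5, 138.1 and 89.0 with filtered smoke. Sample 3 lay close to the controls there. Filtered smoke passed (0.90 ± 0.25, adjusted p = 0.0165), a call lost without filtered 1 (0.066), filtered 2 (0.056), control 2 (0.0574) or control 3 (0.0559), and complete smoke did not (0.69 ± 0.25, adjusted p = 0.056) unless the sample number was a block (0.64, adjusted p = 0.00383).

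GSTP1 (ENSG00000084207, chromosome 11, 67583595 to 67586656) measured 471, 395.7 and 377 CPM in clean-air A549 cells, 693.2, 696.9 and 457 with complete and 917.6, 819 and 485 with filtered smoke. In BEAS-2B cells it measured 761.4, 311.4 and 269.2, then 2023, 1303 and 823.3, then 1765, 1217 and 987 CPM. It was the most abundant member per kilobase in BEAS-2B cells, and its control 1 lay close to the lowest smoke library there. In A549 cells complete 3 lay below control 1, while all filtered libraries lay above the controls. It rose by 1.60 ± 0.48 and 1.53 ± 0.48 in BEAS-2B (adjusted p = 0.0278 and 0.0286) and by 0.84 ± 0.25 with filtered smoke in A549 cells (0.0204). Complete smoke in A549 cells gave 0.58 ± 0.25 (adjusted p = 0.0934; 0.55 and 0.00743 with the block). The BEAS-2B calls were lost without complete 1 (0.088), complete 2 (0.0625), control 2 (0.1) or control 3 (0.0945) for complete and without filtered 1 (0.0863), filtered 2 (0.0612), control 2 (0.0997) or control 3 (0.0953) for filtered smoke. The A549 call was lost without filtered 1 (0.0792), filtered 2 (0.0718), control 2 (0.0697) or control 3 (0.0717), and with offsets for exonic length, gene span and GC content the A549 value was -0.04 (0.838).

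The transferases MGST3 and GSTK1 also rose in all 4 comparisons, and GSTM4, MGST1 and GSTA4 in some. MGST3, a microsomal transferase and peroxidase, measured 106.2, 54.3 and 51.7 CPM in clean-air BEAS-2B cells, 282.4, 246 and 162.9 with complete and 259.2, 211.6 and 174.5 with filtered smoke. No smoke library overlapped the controls (1.69 ± 0.35 and 1.58 ± 0.34, adjusted p = 0.00738 and 0.00844). In A549 cells it measured 71.3, 54.6 and 66.8, then 123.7, 104.7 and 79.8, then 150.9, 108.7 and 86.5 CPM (0.68 ± 0.23 and 0.85 ± 0.23, adjusted p = 0.0451 and 0.0147). The A549 calls were lost without complete 1 (0.158), complete 2 (0.12) or any control (0.0853, 0.149 and 0.0977) and with library size alone (0.56, 0.0624) for complete smoke, and without filtered 1 (0.0599) or control 2 (0.0614) for filtered smoke. GSTM4, another mu-class gene, measured 4.97, 5.02 and 3.93 CPM in clean-air A549 cells, 8.87, 10.4 and 6.61 with complete and 9.33, 10.3 and 7.63 with filtered smoke (0.90 ± 0.21 and 0.98 ± 0.21, adjusted p = 0.0132 and 0.00605).

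In BEAS-2B cells GSTM4 measured 5.54, 5.20 and 2.82 CPM with clean air, 11.3, 8.17 and 6.06 with complete and 8.90, 9.24 and 6.20 with filtered smoke (0.91 ± 0.33 and 0.83 ± 0.33, adjusted p = 0.0492 and 0.0601). Its smoke libraries lay above the controls in both lines, but it overlaps the neighbouring GSTM2 on the same strand and resembles the other mu-class genes, so its counts are uncertain. The calls with complete smoke were lost without complete 2 (0.0638) or control 3 (0.0527) in A549 and without complete 1 (0.173), complete 2 (0.0922), control 2 (0.103) or control 3 (0.158) in BEAS-2B cells, where library size alone gave 0.22 (0.485) and counts that ignore strand 0.95 (0.0519). GSTK1, a mitochondrial and peroxisomal transferase, rose in all 4 comparisons (0.59 to 1.34). MGST1 rose in 3 of 4 (0.58 to 0.85, the exception being complete smoke in A549 cells at 0.49, adjusted p = 0.0503, or 0.0115 with the block), and GSTA4, which conjugates hydroxynonenal, in the A549 comparisons (0.61 ± 0.20 and 0.70 ± 0.20) but not in BEAS-2B cells (0.38 ± 0.20 and 0.30 ± 0.20, adjusted p = 0.142 and 0.22).

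Because several of these genes are known NRF2 targets, the 250 bases before each RefSeq start site (GRCh38.p14) were searched on both strands for exact matches to TGACNNNGC, the core of the antioxidant response element. Of the 44 genes 38 had an entry, with 49 promoters in all, and 7 held a match: AKR7A2, CBR1, GLOD4, PARK7, GSTA4, GSTP1 and GSTO1. That is 8 of 49 promoters or 16.3%, against 10.9% of all 35116 promoters. The stretches of PARK7, GSTO1 and GSTP1 are shown because they are the genes with a match among those given in every library. AKR7A2 and GSTA4 also carry a match on the strand of the gene and rose in some comparisons. The matches shown lie on the gene's strand, 83 bases (PARK7), 226 and 161 bases (GSTO1) and 66 bases (GSTP1) before the start. Each match is in capitals with 10 bases on either side. All lie on the plus strand, at chr1:7961618-7961646, chr10:104254656-104254684, chr10:104254721-104254749 and chr11:67583736-67583764. The starts are those of RefSeq, and each stretch lies inside the GENCODE extent given above for its gene.
PARK7: cggccggacgTGACGCAGCgtgaggccaa
GSTO1, first match: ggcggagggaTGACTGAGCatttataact
GSTO1, second match: cgagatgcttTGACACAGCcccttaagat
GSTP1: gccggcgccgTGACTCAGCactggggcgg
GLOD4 and CBR1 also carry a match and passed in none and in 1 of the 4 comparisons, so a match did not go with a rise in each case. The dioxin-response motif TNGCGTG was found in 1 of the 49 promoters, that of PTGR2 (2.04%, against 4.52% of all). A match is a description of these letters only, and no match says nothing of a factor's binding elsewhere.

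Of the reductases, DCXR, AKR1A1 and AKR1B1 rose in all 4 comparisons. DCXR reduces dicarbonyls and xylulose (ENSG00000169738, chromosome 17, 82035136 to 82037732) and measured 20.6, 21.8 and 15.8 CPM in clean-air A549 cells, 47.3, 51.6 and 26.2 with complete and 56.1, 65.7 and 29.6 with filtered smoke. Its BEAS-2B levels were 120.4, 45.3 and 36.8, then 346.1, 267.8 and 121.1, then 345.7, 263.9 and 163.5 CPM. All smoke libraries lay above the controls of their line, but BEAS-2B control 1 and complete 3 lay within 1 CPM of each other. The fold changes were 1.11 ± 0.32 and 1.39 ± 0.32 in A549 (adjusted p = 0.026 and 0.00776) and 1.82 ± 0.54 and 1.89 ± 0.54 in BEAS-2B cells (0.0259 and 0.0204). With complete smoke the call was lost without complete 1 (0.0834), complete 2 (0.103) or any control (0.0715, 0.0672 and 0.0935) in A549 and without complete 1 (0.0769), complete 2 (0.0677), control 2 (0.0938), control 3 (0.0868) or the low-count filter (0.0653) in BEAS-2B cells. With filtered smoke it was lost in BEAS-2B cells without filtered 1 (0.0624), filtered 2 (0.0524), control 2 (0.0763) or control 3 (0.0691). In A549 cells the offsets gave 0.37 (0.0823) and 0.39 (0.0583).

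AKR1A1, the aldehyde reductase of broad substrate range (ENSG00000117448, chromosome 1, 45550543 to 45570049), measured 59.5, 48.4 and 51.7 CPM in clean-air A549 cells, 92.8, 92.4 and 73.6 with complete and 113.6, 94.2 and 78.5 with filtered smoke (0.70 ± 0.17 and 0.85 ± 0.17, adjusted p = 0.0157 and 0.00492). BEAS-2B libraries gave 90.02, 51.4 and 49.3, then 215.8, 162.9 and 116.2, then 196.8, 158.3 and 140.3 CPM (1.36 ± 0.32 and 1.35 ± 0.32, adjusted p = 0.0113 and 0.0105). All smoke libraries were above the controls of their line. With complete smoke the call was lost in A549 cells without complete 1 (0.0602), complete 2 (0.0663), control 2 (0.0677) or control 3 (0.0547) and in BEAS-2B cells without control 2 (0.0503).

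AKR1B1, aldose reductase (chromosome 7, 134442350 to 134459284), measured 1294, 1161 and 1311 CPM in clean-air A549 cells, 2014, 1966 and 1707 with complete and 2346, 2135 and 1852 with filtered smoke (0.60 ± 0.16 and 0.76 ± 0.16, adjusted p = 0.0192 and 0.00521). In BEAS-2B cells it measured 155.6, 100.1 and 92.1, then 268, 231.9 and 152.7, then 244.4, 228.8 and 190.8 CPM (0.90 ± 0.28 and 0.91 ± 0.28, adjusted p = 0.0312 and 0.0262). The A549 smoke libraries lay above the controls, whereas BEAS-2B control 1 exceeded complete 3. Its calls with complete smoke were lost without complete 1 (0.0705), complete 2 (0.0736) or any control (0.0609, 0.0832 and 0.0504) and with the offsets (0.32, 0.076) in A549 and without complete 1 (0.0991), complete 2 (0.0851), control 2 (0.114) or control 3 (0.113) in BEAS-2B cells. The BEAS-2B call with filtered smoke was lost without filtered 1 (0.0712), filtered 2 (0.0712), control 2 (0.0967) or control 3 (0.0967).

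Other reductases that were high in clean-air A549 cells, AKR1B10 and the AKR1C genes, did not pass against clean air there, apart from AKR1C3 with the block. AKR1B10 measured 2194, 1923 and 962.3 CPM with complete and 2472, 1940 and 1052 with filtered smoke in A549 cells, overlapping the controls (0.33 ± 0.35 and 0.43 ± 0.35, adjusted p = 0.488 and 0.332). AKR1C3 measured 1741, 1598 and 783.5, then 2070, 1572 and 913.2 CPM (0.55 ± 0.34 and 0.69 ± 0.34, adjusted p = 0.228 and 0.118; 0.0272 and 0.00565 with the block). AKR1C2 measured 1931, 1762 and 1076, then 2212, 1720 and 1186 CPM (adjusted p = 0.891 and 0.651), and AKR1C1 401.8, 338.2 and 238.2, then 410, 316 and 259 CPM (0.286 and 0.25). In each of these 4 genes sample 3 of both smoke groups lay below samples 1 and 2.

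In BEAS-2B cells the same genes stayed low: AKR1C1 reached 1.28, 1.11 and 1.40 CPM with complete and 1.10, 1.35 and 1.33 with filtered smoke, AKR1C2 0.336, 0.571 and 0.551, then 0.694, 0.699 and 0.417, and AKR1C3 1.71, 1.498 and 1.21, then 1.18, 1.60 and 1.53 CPM. None of the 3 passed. AKR1B10 passed with filtered smoke (0.408, 0.549 and 0.445 CPM, 1.02 ± 0.38, adjusted p = 0.0491) and not with complete smoke (0.366, 0.214 and 0.257 CPM). That call rests on 24 counts with clean air and 48 with filtered smoke and was lost in 13 of 15 alternatives, among them the removal of any 1 of the 6 libraries compared (adjusted p from 0.0563 to 0.187).

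AKR7A2, which reduces succinic semialdehyde, rose with filtered smoke in A549 and with both smokes in BEAS-2B cells (0.85 to 1.35), and AKR7A3 did not pass (-0.24 in both BEAS-2B comparisons). PTGR1, which reduces the double bond of lipid enals, measured 188.7, 141.4 and 188.5 CPM in clean-air A549 cells, 255.9, 217.1 and 216.8 with complete and 275.9, 244.5 and 225.5 with filtered smoke (0.42 ± 0.16 and 0.53 ± 0.16, adjusted p = 0.0712 and 0.0241; 0.0127 for complete smoke with the block). Its BEAS-2B levels were 151.1, 118.5 and 112.1, then 214.5, 225.5 and 160.7, then 175.7, 223.2 and 198 CPM (0.65 ± 0.21 and 0.63 ± 0.21, adjusted p = 0.0354 each). No smoke library overlapped the controls of its line, yet with library size alone both BEAS-2B values were -0.01.

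The PTGR1 call with filtered smoke in A549 cells was lost without filtered 1 (0.0884), filtered 2 (0.0641) or control 2 (0.0982) and with library size alone (0.37, 0.0636). In BEAS-2B cells the call was lost without complete 1 (0.0953), complete 2 (0.113), control 2 (0.126) or control 3 (0.131) for complete and without filtered 2 (0.118), filtered 3 (0.0704), control 2 (0.123) or control 3 (0.128) for filtered smoke, and without the low-count filter (0.111 and 0.0948). CBR1, a broad carbonyl and quinone reductase, rose with filtered smoke in A549 cells (0.75 ± 0.19, adjusted p = 0.0122; complete smoke 0.55 ± 0.19 and 0.0532, or 0.00572 with the block). CBR3 and CBR4 passed in no comparison of the main fits, and CBR3 passed with the block for filtered smoke in A549 cells (0.50, adjusted p = 0.0309). Under library size alone the medians of 2 classes turned in BEAS-2B cells, CBR to -0.37 and -0.26 and AKR, with complete smoke, to -0.12, while GST (0.80 and 0.77) and glyoxalase and formaldehyde genes (0.32 and 0.24) stayed above 0.

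In the main fits the enzymes that fell against clean air were ALDH genes, apart from PTGR2. By library size alone AKR1C3, AKR7A3 and GLOD4 were also lower with both smokes in BEAS-2B cells, and CBR4 with filtered smoke. With the offsets AKR7A3 and CBR3 were lower there with both smokes. ALDH3A2, the microsomal fatty aldehyde dehydrogenase (ENSG00000072210, chromosome 17, 19648136 to 19677598), measured 87.2, 77.9 and 85.3 CPM in clean-air BEAS-2B cells, 33.2, 38.9 and 35.3 with complete and 33.4, 40.1 and 47.6 with filtered smoke. Smoke and control libraries lay far apart, with fold changes of -1.21 ± 0.19 and -1.05 ± 0.19 (adjusted p = 0.00312 and 0.00462), and the calls held in all 15 alternatives. In A549 cells it measured 249.2, 240.9 and 224, then 200.9, 212.2 and 198.5, then 183.8, 193.1 and 208.5 CPM. Smoke and control libraries did not overlap there either, but the values of -0.22 ± 0.12 and -0.28 ± 0.12 did not pass (adjusted p = 0.188 and 0.083), apart from filtered smoke with the block (-0.28, adjusted p = 0.0413).

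ALDH3A1 (ENSG00000108602, chromosome 17, 19737984 to 19748943), its neighbour on the chromosome, moved in opposite directions. In A549 cells it measured 3618, 4108 and 2317 CPM with complete and 3988, 4647 and 2269 with filtered smoke, all above the controls (0.78 ± 0.28 and 0.90 ± 0.28, adjusted p = 0.0563 and 0.0259; 0.73 and 0.00212 for complete smoke with the block). In BEAS-2B cells, at a far lower level, it measured 5.04, 4.99 and 2.21 with complete and 5.11, 4.84 and 2.20 CPM with filtered smoke, all below the controls (-1.27 ± 0.44 and -1.30 ± 0.44, adjusted p = 0.0446 and 0.0369). Tested directly, the line difference was -2.02 ± 0.55 and -2.16 ± 0.55 and did not pass (adjusted p = 0.072 and 0.0743).

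Each ALDH3A1 call was sensitive to its libraries. The BEAS-2B calls were lost when any 1 of the 6 libraries compared was left out (adjusted p from 0.0626 to 0.136 for complete and from 0.0535 to 0.118 for filtered smoke). Of these the smallest changes, -0.80 and -0.83, came without control 1. Without control 1 and complete 3 together the value with complete smoke was -0.51 (adjusted p = 0.227), while the call with filtered smoke held. The A549 call was lost without filtered 1 (0.0753), filtered 2 (0.11) or any control (0.063, 0.0668 and 0.091), and with the offsets (0.38, adjusted p = 0.134).

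ALDH1L2, the mitochondrial counterpart of ALDH1L1, fell in A549 cells, from 10.7, 12.1 and 11.8 CPM to 4.53, 5.83 and 7.98 with complete and 3.31, 4.62 and 6.38 with filtered smoke. All smoke libraries lay below the controls (-0.90 ± 0.26 and -1.26 ± 0.26, adjusted p = 0.0271 and 0.00552). In BEAS-2B cells its values of 2.36, 6.65 and 5.35, then 0.794, 2.57 and 3.05, then 0.694, 2.85 and 2.17 CPM overlapped, and -1.12 ± 0.60 and -1.29 ± 0.60 did not pass (adjusted p = 0.153 and 0.0968). ALDH1L2 was called lower there with both smokes when the block was used, and also without control 1 and complete 3 together. The sample numbers were not taken to pair the BEAS-2B samples. The A549 call with complete smoke was lost without complete 1 (0.0979), complete 2 (0.0968) or any control (0.0622, 0.0816 and 0.0778), and with the offsets for exonic length, span and GC content (-0.47, 0.0652). ALDH1L1 was tested only in BEAS-2B cells and rose with filtered smoke, to 12.7, 7.77 and 6.62 CPM (1.30 ± 0.43, adjusted p = 0.034), but measured 12.8, 7.31 and 4.48 CPM with complete smoke (1.18 ± 0.43, adjusted p = 0.0536). In A549 cells it had 8 counts with complete and 9 with filtered smoke.

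The ALDH1L1 call was lost without filtered 1 (0.117), filtered 2 (0.0623), control 2 (0.114) or control 3 (0.117). ALDH5A1, succinic semialdehyde dehydrogenase, fell in BEAS-2B cells, from 2.99, 4.10 and 5.13 CPM to 1.95, 1.68 and 1.76 with complete and 1.67, 2.55 and 2.37 with filtered smoke (-1.15 ± 0.26 and -0.88 ± 0.26, adjusted p = 0.00986 and 0.0211). With filtered smoke in A549 cells it passed lower when the block was used (-0.40, adjusted p = 0.0279). ALDH6A1, of valine breakdown, fell in A549 cells with filtered smoke (-0.81 ± 0.25, adjusted p = 0.025). With the block it was also called lower in BEAS-2B cells with both smokes. Beyond the dehydrogenases only PTGR2, a prostaglandin reductase, fell in the main fits. With filtered smoke in BEAS-2B cells it went from 1.23, 1.12 and 1.16 to 0.613, 0.425 and 0.584 CPM (-1.12 ± 0.29, adjusted p = 0.0139). PTGR2 overlaps ZNF410 on the same strand.

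With filtered smoke 4 ALDH genes rose in A549 and 5 in BEAS-2B cells, and with complete smoke 0 and 1. With filtered smoke these were 26.7% and 33.3% of the 15 tested, beside 23.1% and 23.6% of all genes. With complete smoke they were 0% and 6.67%, beside 15.6% and 21.5%. With the sample number as a block, complete smoke raised 5 ALDH genes in A549 cells and filtered smoke 6, and no ALDH gene passed between the 2 smokes in either line. ALDH16A1, a family member of uncertain substrate, measured 16.4, 19.2 and 13.4 CPM in clean-air A549 cells, 31.6, 27.8 and 15.7 with complete and 37.7, 41.2 and 17.1 with filtered smoke. BEAS-2B libraries gave 32.5, 19.7 and 18.6, then 38.5, 46.7 and 25.1, then 56.3, 47.1 and 41.1 CPM. Sample 3 of the A549 smoke groups lay within the controls. Filtered smoke passed in both lines (0.98 ± 0.34 and 1.01 ± 0.30, adjusted p = 0.0366 and 0.0232) and complete smoke in neither (0.62 ± 0.34 and 0.63 ± 0.30, adjusted p = 0.167 and 0.113), except with the block in A549 cells (0.57, adjusted p = 0.0137).

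The ALDH16A1 calls were lost without filtered 1 (0.109), filtered 2 (0.137) or any control (0.0936, 0.0641 and 0.121), with library size alone (0.80, 0.0633) and with the offsets (0.49, 0.0997) in A549 and without filtered 1 (0.0704), filtered 2 (0.058), control 2 (0.0879) or control 3 (0.0875) in BEAS-2B cells, and the gene overlaps another on its strand. ALDH3B1 and ALDH4A1 rose with filtered smoke in both lines (0.46 to 0.80), and ALDH1B1, a mitochondrial relative of ALDH2, with both smokes in BEAS-2B cells (0.89 ± 0.23 and 1.04 ± 0.23, adjusted p = 0.0168 and 0.00891).

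The most abundant dehydrogenase and others did not pass. ALDH7A1, which acts in lysine breakdown, passed in A549 cells with filtered smoke when the block was used (0.31, adjusted p = 0.03). ALDH1A1 measured 7675, 7409 and 7237 CPM with complete and 8030, 7231 and 7892 with filtered smoke in A549 cells, above all controls but by 0.20 ± 0.16 and 0.25 ± 0.16 (adjusted p = 0.342 and 0.212), and received 2 and 1 counts in the BEAS-2B smoke groups. ALDH2 measured 83.7, 72.9 and 92.0, then 90.4, 75.5 and 84.3 CPM in A549 cells (0.35 ± 0.18 each, adjusted p = 0.158 and 0.132; 0.0255 and 0.0185 with the block). The BEAS-2B values were 3.11, 3.67 and 1.95, then 2.98, 4.12 and 3.28 CPM, below all controls (-0.60 ± 0.25 and -0.36 ± 0.25, adjusted p = 0.081 and 0.251). With the block ALDH2 was called lower there with complete smoke. ALDH18A1, of proline synthesis and the most abundant ALDH per kilobase in BEAS-2B cells, measured 118.1, 115.3 and 115.4 CPM with clean air, 104.6, 117.2 and 107.8 with complete and 104.8, 106.5 and 110.1 with filtered smoke in A549 cells. Its BEAS-2B levels were 109.6, 122.2 and 114.4, then 105.5, 108.6 and 90.8, then 103, 111.8 and 111.6 CPM (fold changes from -0.17 to -0.07 over both lines).

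Complete and filtered smoke were compared directly to ask whether the enzymes separated the aerosols. None of the 42 tested in A549 and none of the 43 tested in BEAS-2B cells passed, where 0% of all genes did (edgeR; 236 and 222 genes had an unadjusted p under 0.05, 1 enzyme in each line). Those were ALDH1A3, a retinaldehyde dehydrogenase, in A549 cells (40.0, 41.5 and 53.1 CPM with complete and 22.6, 28.2 and 18.2 with filtered smoke, 0.96 ± 0.30) and PTGR2 in BEAS-2B cells (1.38 ± 0.29), with adjusted p = 0.998 and 1. The DESeq2 Wald test called 3 and 0 genes in all and none of the enzymes. The differences ran from -0.35 to 0.96 in A549 (median -0.10) and from -0.72 to 1.38 in BEAS-2B cells (median 0.02). For HAGH they were -0.20 ± 0.20 and 0.01 ± 0.41, and for GSTM3 -0.14 ± 0.23 and 0.09 ± 0.23. Without the low-count filter ALDH1A3 passed in A549 cells.

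Whether the lines responded differently was tested as the BEAS-2B response minus the A549 response over all 18 libraries. With complete smoke 0 of 44 enzymes were higher and 1 lower in this difference, where 0.565% and 1.17% of all genes were. With filtered smoke 0 were higher and 0 lower, where 0.311% and 0.514% were. The one was ALDH3A2, with a difference of -1.0 ± 0.22 (adjusted p = 0.0273). The call was lost without A549 complete 1, 2 or 3 (0.0615, 0.0674 and 0.0634), A549 control 1, 2 or 3 (0.0687, 0.0663 and 0.0651), BEAS-2B complete 1 (0.08) or BEAS-2B control 3 (0.0522) and without the low-count filter (0.105), the highest value of 21 alternatives, whose lowest was 2.7e-05. The larger GST changes in BEAS-2B cells did not pass, at 1.23 ± 0.43 for GSTO1 (adjusted p = 0.159), 1.03 ± 0.42 for MGST3 (0.217) and 1.06 ± 0.55 for GSTP1 (0.332) with complete smoke. Leaving out BEAS-2B control 1 gave 3 calls with complete smoke, and leaving out that library and complete 3 together gave 12 higher and 2 lower with complete and 3 higher and 1 lower with filtered smoke. With the sample number as a block 16 and 10 enzymes were called.

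Gene span moved with the response across the genome and is given here beside the members. Over all protein-coding genes the median log2 fold change was 0.55, 0.67, 0.71 and 0.78 for genes of up to 10000 bp (A549 complete, A549 filtered, BEAS-2B complete, BEAS-2B filtered) and -0.54, -0.59, -0.57 and -0.73 for those over 100000 bp. The members of up to 10000 bp, 6 in A549 and 7 in BEAS-2B cells, had medians of 0.59, 0.85, 1.32 and 1.35. Members of 10000 to 30000 bp, 17 in each line, had medians of 0.47, 0.55, 0.43 and 0.65 beside 0.20, 0.21, 0.12 and 0.19 over all genes of that span. Those of 30000 to 100000 bp had medians of 0.38, 0.33, 0.12 and 0.16 beside -0.16, -0.21, -0.33 and -0.35. HAGH, PARK7, GSTO1 and MGST3 fall in that range but near its lower end, at 31575, 31215, 32104 and 30936 bp. With offsets for exonic length, span and GC content (the share of G and C bases), 9 enzymes were higher and 0 lower, then 14 and 3, in A549 and 21 and 5, then 22 and 5, in BEAS-2B cells.

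**Figure D4:**
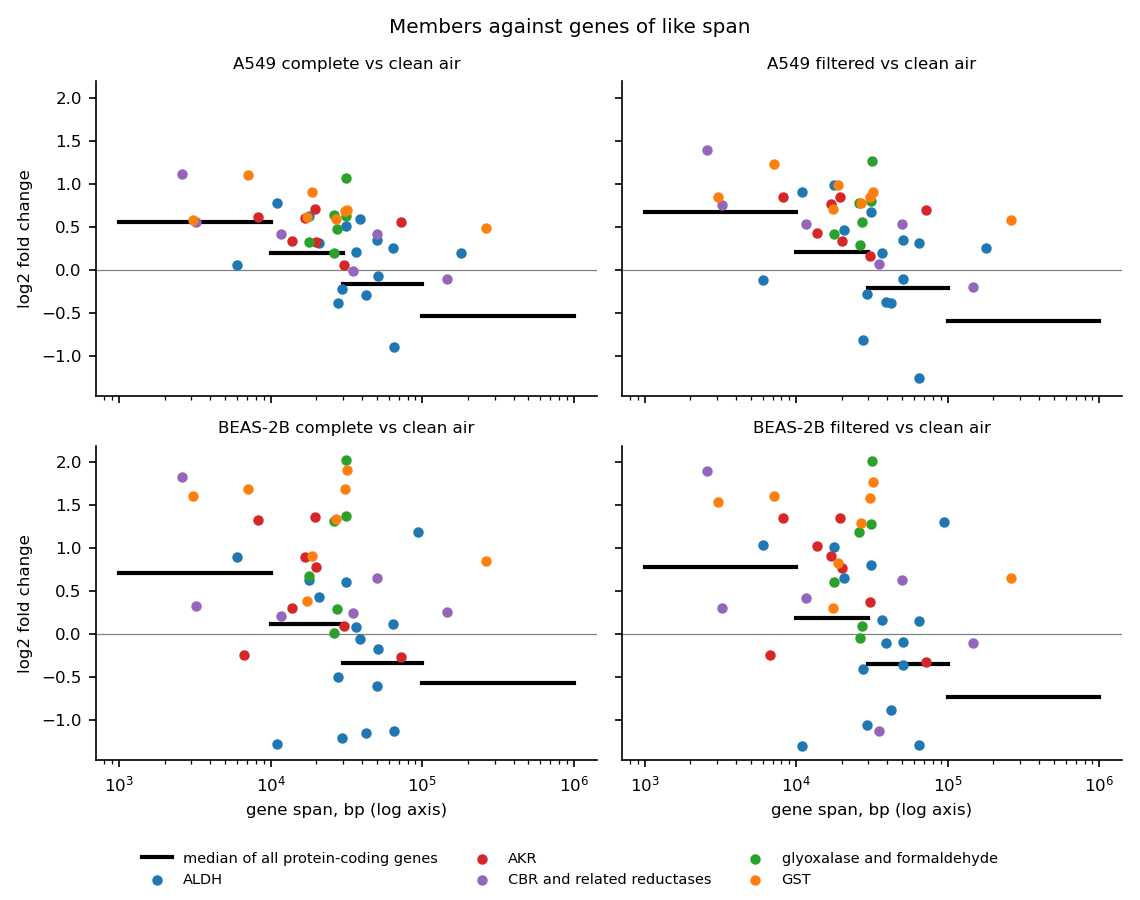
Log2 fold change of each tested enzyme against its gene span in bp (log axis) in the 4 smoke comparisons, coloured by class, with black bars at the median of all protein-coding genes in each of 4 span ranges. The bars fall from 0.55 to -0.54 in A549 cells with complete smoke, and in all 4 panels most enzymes of 10000 to 100000 bp lie above their bar.

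Other genes of the same routes, taken as 3 lists, moved in both directions. Of 17 further alcohol and aldehyde dehydrogenases and aldo-keto reductases, 6 were tested in A549 and 8 in BEAS-2B cells, and 1 rose and 1 fell with each smoke in A549 cells, then 2 and 2 with complete and 3 and 1 with filtered smoke in BEAS-2B cells. SORD, which makes fructose from the sorbitol that aldose reductase forms, was the one that rose in A549 cells (0.83 ± 0.17 and 0.94 ± 0.17). Of 26 further carbonyl and quinone reductases, all tested, 7 rose and 1 fell, then 10 and 3, in A549 and 9 and 3 with each smoke in BEAS-2B cells. DHRS11, a short-chain reductase of steroids and other carbonyls, rose in all 4 (1.34, 1.31, 1.59 and 1.79). Of 21 further glutathione conjugation and epoxide genes, 20 were found, 13 tested in A549 and 14 in BEAS-2B cells, and 4 rose and 2 fell, then 5 and 2, then 6 and 1, then 7 and 3. ABCC1, which exports glutathione conjugates, fell in A549 cells (-1.12 and -1.23). The list medians ran from 0.16 to 0.79. Over all genes 15.6% and 16.9%, 23.1% and 23.5%, 21.5% and 19.5%, and 23.6% and 24.9% were higher and lower in the 4 comparisons.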

How the data were processed

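Raw gene counts from mRNA sequencing of 18 libraries were deposited by the authors as STAR tables, with the aligner given as STAR 2.7.10b and the genome as GRCh38 per the submitters' processing notes; the gene annotation release is not given in the sources used here. Column 4 of each table, which counts reads on the transcribed strand, was used, because its total was 11.73 to 17.09 times that of column 3. These tables hold uniquely mapped reads, so near-identical copies lose reads. The labels do not state if the 3 libraries per group are independent cultures, so a p-value here reflects only variation among these libraries, possibly technical.

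Within each line, edgeR 4.0.16 (R 4.3.3) was fitted to 9 libraries with filterByExpr, TMM scaling and robust quasi-likelihood tests, with Benjamini-Hochberg adjustment over all genes at 0.05. Line differences and the clean-air comparison came from 1 fit of all 18 libraries, and DESeq2 1.42.0 was an alternative. CPM values use the TMM-scaled library sizes of that joint fit, and standard errors are derived from the test statistic. Exonic length, span and positions are from GENCODE release 29, and promoters from RefSeq. The same-numbered A549 samples deviated together (r from 0.22 to 0.798 over 9 pairs), so the blocked value is given for them where it changes a call; the pairing comes from the data, not from the labels. Other alternatives were DESeq2 size factors, library size alone, no low-count filter, counts that ignore strand, offsets for length, span and GC content, each library left out, and BEAS-2B control 1 and complete 3 left out. Values in every library were planned for 23 genes, by a rule: the 8 largest called changes in each line, the 8 largest clean-air line differences, the most abundant gene of each class and line, and called line differences. ESD, ALDH5A1, ALDH1A3 and PTGR2 were added after their values were seen. The full set of alternatives was followed gene by gene for the 23 alone. Block results are also given for other enzymes, and counts of called enzymes under each alternative cover all that were tested. The members and gene lists were chosen with earlier results of these data known. The scripts were tested on simulated data. Coordinates in the text are GRCh38.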

Additional observations from a re-analysis of the deposited data

Results flagged for a closer look

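The smoke response of ALDH3A2 differed between the lines by a direct test. The BEAS-2B response to complete smoke minus the A549 response was -1.0 on the log2 scale (edgeR adjusted p = 0.0273), from -1.21 in BEAS-2B and -0.22 in A549 cells. The call was lost in 9 of 21 alternatives, and with filtered smoke the difference was -0.76 (adjusted p = 0.107).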

How the results depend on the processing

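For the 23 genes given in every library, 60 gene results were recomputed under 883 alternative values, of which 720 kept their direction and side of the threshold, 159 kept only the direction and 4 turned: PTGR1 with complete and with filtered smoke in BEAS-2B cells (-0.01 each, library size alone) and GSTP1 with filtered smoke in A549 cells (-0.04 with the offsets, with or without the replicate block). The cause was not tested. Leaving out a library gave 130 of the 159 losses, in fits with fewer samples. The number of enzymes called in A549 cells with complete smoke, 12, became 20 without the low-count filter, 19 with DESeq2, 25 with the replicate block and 23 with block and offsets, and ran from 1 to 23 with a library left out. With filtered smoke, 24 became 11 to 31. In BEAS-2B cells 20 became 31 with block and offsets and 7 to 25 with a library left out, and 25 became 9 to 28. The comparison of the 2 smokes in A549 cells gave 1 without the filter. The line difference with complete smoke, 1, became 5 with library size alone, 2 without the filter, 2 with DESeq2, 16 with the block, 4 with offsets, 19 with block and offsets, 14 without BEAS-2B control 1 and complete 3, and 0 to 3 with a library left out. With filtered smoke, 0 became 5, 1, 3, 10, 3, 17 and 4 in that order. The clean-air count, 28, ran from 25 to 27 with a library left out. In BEAS-2B cells the same-numbered samples 1 and 3 deviated together (r from 0.571 to 0.666 over 6 pairs) but those of sample 2 did not in every pair (-0.134, 0.159 and 0.293), so the numbers were not taken to pair the samples and the replicate block is a hint from the data there. With 3 libraries a group, small changes and genes of a few counts were at the limit of what could be detected.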
